A study of Mus musculus with 20 samples.

Results

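Gene expression was compared between the bortezomib-sensitive culture of the mouse myeloma line 589bm and the bortezomib-sensitive culture of the line 595sp. The arrays were taken by their titles, 5 for each line at 0, 2, 8, 16 and 24 h, and were paired by time, which makes 10 of the 20 arrays of the series. Both lines are multiple myeloma derived cells of Bcl-XL/Myc double transgenic genotype on a strain background of FVBN and BL/6, so every group carries both transgenes, and the sources used here do not name the promoters that drive them. The arrays after 0 h were taken under 33 nM bortezomib, an inhibitor of the proteasome that is used to treat multiple myeloma. The other arrays of the series come from a bortezomib-resistant culture of each line, of the same genotype and sampled at the same times. Those at 0, 8, 16 and 24 h gave a second measurement of the difference between the lines, with 4 arrays for each line.

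Each line is represented by 1 sensitive culture with 1 array at each time. The p-values therefore measure the spread over the times of 1 culture for each line, which may be technical in part, and not the spread between cultures or mice. All later arrays were treated, with no untreated partner, so drug and time in culture cannot be told apart. Mean signals of the 10 arrays were 377 to 638. On normalized log2 intensity, arrays of the same line correlated at 0.945 to 0.994 over 22641 probes, and arrays of different lines at 0.910 to 0.947. The resistant 589bm array at 2 h carried almost no signal (mean 140) and entered no fit. For the arrays titled as the resistant 595sp culture, titles and characteristics disagree, and the titles were followed.

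B cells pass through ordered stages, and each stage is known by its own genes. Pro-B cells make a surrogate light chain, of the products of Vpreb1 and Igll1, and pre-B cells carry it on the surface with a new immunoglobulin heavy chain as the pre-B cell receptor. Mature B cells replace it with a true light chain, and plasma cells, from which myeloma arises, shut down the B cell program through Prdm1 and turn to the secretion of antibody with Xbp1.

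Checked against the label, the markers of both lines were mixed. Some genes of B cells and of antibody-secreting cells were bright, and defining plasma cell markers were not. Mzb1, a chaperone of antibody-secreting cells, averaged 14.23 in 589bm and 14.14 in 595sp (log2 intensity), and the B cell coactivator Pou2af1 averaged 12.60 in 589bm and 12.68 in 595sp. Xbp1, Irf4, Cd79b and Tnfrsf13b also lay above the array median of 6.51 in both lines. Defining plasma cell markers lay close to that median: no probe of Sdc1 (syndecan-1), Prdm1, Jchain, Tnfrsf17 (BCMA) or Cd27 exceeded 7.23 on any of the 10 arrays. Pax5 and Ms4a1 (CD20), genes of B cells before the plasma cell stage, were at 6.34 to 7.02. The deposited values carry no detection calls, so a value near the median cannot be told apart from background. Cd38, Cd79a and Ighm were not analysed here. Ighg1 was the 1 immunoglobulin constant gene tested, at 5.92 to 6.83 in 589bm and 6.56 to 6.87 in 595sp (adjusted p = 0.277), so the antibody output of the lines was not analysed here.

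Differences are given as log2 intensity of 589bm minus 595sp, from limma with time as a term and Benjamini-Hochberg adjustment over all kept probes, and a gene was called at an adjusted p under 0.05. Of 11749 genes tested, 3400 were called, which is 28.9%. There were 1710 genes higher in 589bm (14.6%) and 1690 higher in 595sp (14.4%). With the arrays scaled by their medians in place of quantile normalization, the split was 1200 and 1958. The difference exceeded 1 on the log2 scale for 739 called genes, 2 for 131 and 3 for 35. The arrays of one line did not overlap those of the other for 2099 genes (17.9%), with 8.59% higher in 589bm and 9.28% in 595sp, and 1989 genes (16.9%) were both called and free of overlap. In these bulk samples, fewer cells of a type and less RNA per cell cannot be told apart.

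The genes with the greatest differences were those of the surrogate light chain. Vpreb1 was at 6.99, 6.60, 6.71, 6.57 and 6.38 in 589bm (0, 2, 8, 16 and 24 h, the order used throughout) and at 12.95, 13.07, 12.71, 12.83 and 12.44 in 595sp. Igll1, its partner, was at 6.89, 7.04, 6.69, 6.57 and 6.72 in 589bm and at 13.54, 13.62, 12.87, 12.61 and 12.55 in 595sp. All 5 arrays of 595sp were high and all 5 of 589bm were near the array median. The difference was -6.15 for Vpreb1 (SE 0.12, adjusted p = 7.13e-12) and -6.26 for Igll1 (SE 0.14, adjusted p = 2.00e-11). All differences are of background-corrected intensity with an offset of 50, a scale that understates the change of dim genes. Vpreb2, a close copy of Vpreb1, was below the filter on dim probes and averaged 6 in 589bm and 5.96 in 595sp.

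Igll1 and Vpreb1 are neighbours on chromosome 16 in the order of tested genes. Spag6l, the tested gene next to Igll1, differed by -0.02 (adjusted p = 0.912), and Top3b, next to Vpreb1, by -0.37 (adjusted p = 0.234), so neither passed. The promoter windows of the pair are shown because the genes moved together. Each is 300 bases from RefSeq, assembly GRCm38.p6, minus strand, 5′ to 3′, and ends 50 bases after the start of the gene. Capitals mark every CANNTG, the E-box pattern, which reads the same on both strands.
Vpreb1, chr16:16869206-16869505: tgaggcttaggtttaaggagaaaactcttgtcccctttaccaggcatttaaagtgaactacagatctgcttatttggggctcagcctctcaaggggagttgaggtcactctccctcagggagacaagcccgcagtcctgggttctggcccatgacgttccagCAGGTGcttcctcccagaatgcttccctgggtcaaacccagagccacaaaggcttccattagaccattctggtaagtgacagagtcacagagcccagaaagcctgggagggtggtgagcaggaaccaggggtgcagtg
Igll1, chr16:16863936-16864235: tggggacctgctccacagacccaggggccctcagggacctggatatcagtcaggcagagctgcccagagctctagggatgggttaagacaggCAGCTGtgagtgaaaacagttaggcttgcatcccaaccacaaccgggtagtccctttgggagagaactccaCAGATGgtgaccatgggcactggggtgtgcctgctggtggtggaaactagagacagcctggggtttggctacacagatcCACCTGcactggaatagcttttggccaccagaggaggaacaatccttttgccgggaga
The Vpreb1 window holds 1 such match and the Igll1 window 3. Of 32851 promoter windows of the same length, 72.3% hold at least 1 and 17.6% hold 3 or more, so such matches are common. The pattern CCCNNGGG, which also reads the same on both strands, matched 0 times in the Vpreb1 window and 1 time in the Igll1 window, and 13.7% of all windows hold it.

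Most tested genes of the immature B lineage differed in the same direction. Of 11 tested members of a list of 16, 8 were higher in 595sp (against 14.4% of all genes) and 0 in 589bm, and the median difference of the 11 was -1.49. Cd93, a surface receptor of early B cells, was at 8.76, 8.99, 7.53, 7.27 and 6.99 in 589bm and at 11.26, 11.21, 10.40, 10.10 and 10.46 in 595sp. Its level was lower at the late times in both lines, yet every 595sp array exceeded every 589bm array (difference -2.78, SE 0.16, adjusted p = 9.06e-08). Il7r, the receptor for a growth factor of pro-B and pre-B cells, was at 7.07, 6.99, 6.68, 6.68 and 6.88 in 589bm and at 9.98, 9.92, 8.99, 8.52 and 8.98 in 595sp. The lines again did not overlap (-2.42, adjusted p = 4.23e-07), although 1 dim probe of the 4 kept for Il7r gave 0.15. The other called members, given to complete the list, were Sox4 and Lef1, transcription factors of early lymphoid cells (-1.80 and -1.46), Vpreb3, which accompanies the pre-B cell receptor (-1.49), and Cd24a (-0.65). The recombination genes Rag1 (0.38) and Dntt (0.21) did not pass, nor did Spn, and Rag2 was below the filter, as were Kit, Flt3 and Enpep.

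**Figure D1:**
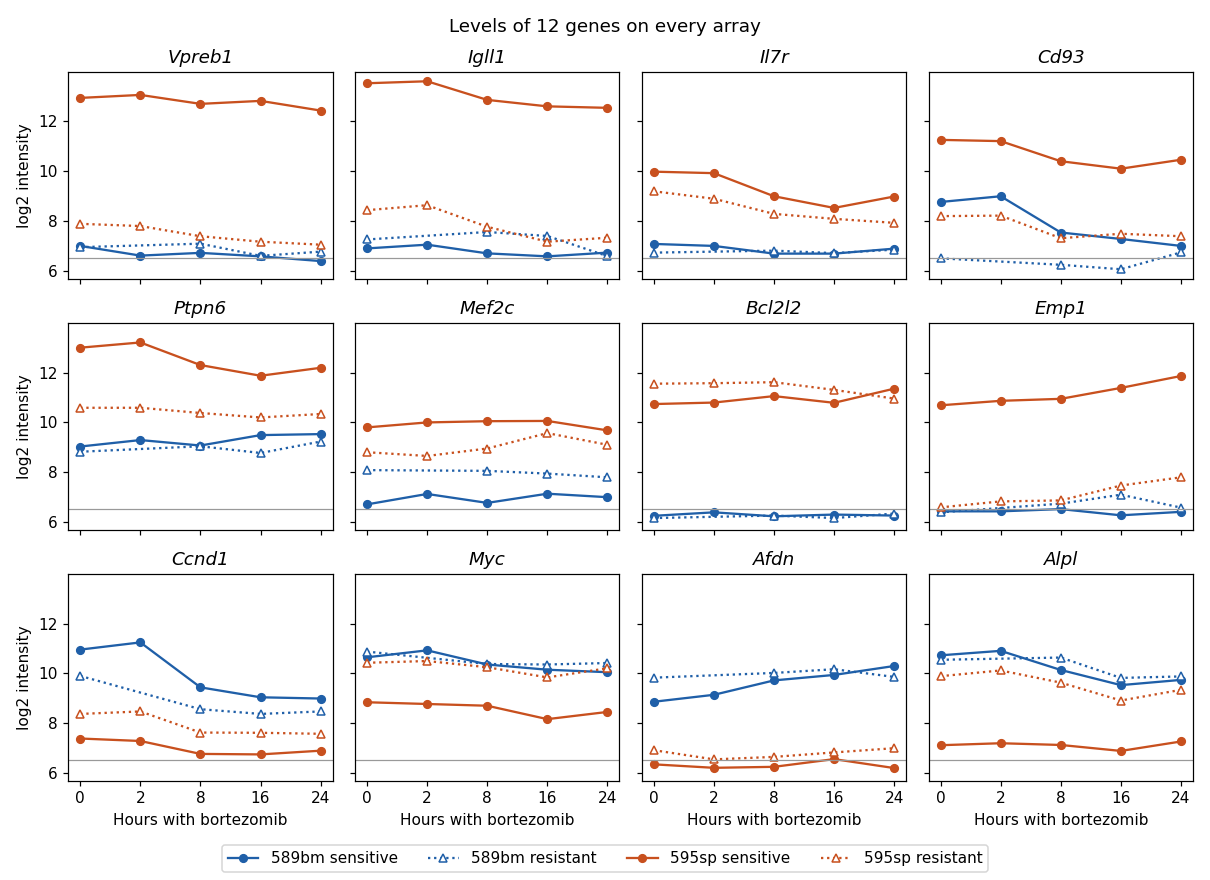
Log2 intensity of 12 genes (vertical axis) on every array with signal, against hours with bortezomib (horizontal axis). Filled circles are sensitive and open triangles resistant cultures, blue is 589bm and orange 595sp, and the grey line is the array median of 6.51. Vpreb1 and Igll1 stand between 12.44 and 13.62 in sensitive 595sp alone, while Bcl2l2 and Afdn separate the lines in both cultures. The resistant 595sp array at 2 h is shown but entered no fit.

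Of 16 tested surface genes of mature B cells, 7 were higher in 595sp and 2 in 589bm, with a median of -0.35. Of all genes, 14.4% were higher in 595sp and 14.6% in 589bm, so the count toward 589bm is near the general share. Those higher in 595sp included Cd52 (-1.04, adjusted p = 8.71e-05), the tetraspanin Cd37 (-0.92, adjusted p = 0.000152), Cd180 (-0.90, adjusted p = 0.0102) and Tnfrsf13c, the receptor for the survival factor BAFF (-0.80, adjusted p = 0.00254). Of these 4, Cd37 alone was free of overlap between the lines. Cd180 in 595sp was at 8.92 and 8.84 at 0 and 2 h and at 6.80 to 7.26 later, where 589bm was at 6.55 to 6.68. Higher in 589bm were Ltb, a lymphotoxin subunit (1.54, adjusted p = 2.18e-05), and the inhibitory Fc receptor Fcgr2b (0.79, adjusted p = 0.000766). Further Fcgr2b probes gave 0.59 and 0.44, both called, and 0.31 and 0.04, neither called (adjusted p = 0.287 and 0.873). Ltb was at 8.98, 8.78, 8.47, 8.48 and 8.38 in 589bm and at 6.96, 6.84, 6.84, 7.17 and 7.55 in 595sp, with no overlap. Ptprc (CD45), a phosphatase of all white blood cells, did not pass (-0.39, adjusted p = 0.0618).

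Of 17 tested transcription factors of B cells, 7 were higher in 595sp (against 14.4% of all genes) and 2 in 589bm (near the 14.6% of all genes). Mef2c, which acts downstream of the B cell receptor, was at 6.69, 7.11, 6.75, 7.12 and 6.98 in 589bm and at 9.79, 9.99, 10.04, 10.05 and 9.67 in 595sp (-2.98, SE 0.13, adjusted p = 6.37e-09). Bcl6, the repressor that marks germinal centre B cells, was at 6.38, 6.55, 6.59, 7.57 and 7.36 in 589bm and at 8.95, 8.64, 9.01, 8.66 and 9.31 in 595sp (-2.02, adjusted p = 4.65e-06). Both separated the lines without overlap. Irf8 (-0.98) and Ebf1, the early B cell factor (-0.68, adjusted p = 0.00378), were also higher in 595sp. In the other direction stood Klf2, a factor of lymphocyte quiescence and trafficking (1.45, adjusted p = 3.21e-05), and Foxo1 (0.86, adjusted p = 0.000916), with no overlap for either. Of 7 tested germinal centre genes, 1 was higher in each line, a share near that of all genes (28.6% called against 28.9%): the costimulatory ligand Cd86 in 595sp (-1.53, adjusted p = 3.26e-06) and Efnb1 in 589bm (0.66, adjusted p = 0.000379).

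Genes that carry signals from the B cell receptor were higher in 595sp for 8 of 14 tested and in 589bm for 1, with a median of -0.56. The shares of all genes were 14.4% and 14.6%. Ptpn6, the phosphatase SHP-1 that restrains this receptor, was at 9.02, 9.28, 9.06, 9.48 and 9.52 in 589bm and at 13, 13.21, 12.30, 11.87 and 12.19 in 595sp (-3.25, SE 0.21, adjusted p = 2.25e-07). The inositol phosphatase Inpp5d (SHIP-1), also an inhibitor, stood at -1.51 (adjusted p = 1.11e-05), the adaptor Pik3ap1 at -2.05 (adjusted p = 7.44e-08) and the kinase Blk at -1.29 (adjusted p = 2.35e-05), none with overlap. Activators and inhibitors of the receptor were thus both among the genes higher in 595sp. The adaptor Bank1 was higher in 589bm (0.49, adjusted p = 0.0145), a call lost without the 0 h pair (adjusted p = 0.061) or the 8 h pair (0.0544). The receptor subunit Cd79b averaged 12.23 in 589bm and 12.12 in 595sp and did not pass. Lat2, an adaptor of immune receptors in B and myeloid cells that is on none of the lists, was at 6.77, 7.46, 7.07, 6.97 and 7.14 in 589bm and at 11.85, 11.89, 12.02, 11.98 and 12.31 in 595sp. Its difference of -4.93 (SE 0.13, adjusted p = 1.21e-10) ranked behind those of Igll1 and Vpreb1 among genes higher in 595sp.

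Plasma cell factors and surface genes were called in both directions. Of 14 tested, 4 were higher in 595sp (against 14.4% of all genes) and 2 in 589bm (near the 14.6% of all genes), with a median of 0.01. The tetraspanin Cd9 was at 5.93, 6.40, 6.24, 6.35 and 6.55 in 589bm and at 8.39, 8.60, 9.23, 9.48 and 9.80 in 595sp (-2.81, SE 0.16, adjusted p = 8.98e-08), with no overlap. Cd28 followed at -0.81, Irf4, a regulator of plasma cells, at -0.47 and Sdc1 at -0.42, while Zbtb20 (0.79) and Ly6k (0.32) were higher in 589bm. The calls of Irf4, Sdc1 and Ly6k were each lost without at least 1 time pair (adjusted p of 0.0515 to 0.166). Xbp1 differed by -0.58 and did not pass (adjusted p = 0.0655): 589bm was at 10.02 and 10.15 at 0 and 2 h and at 11.24 to 11.52 later, and 595sp at 11.19 to 11.76 throughout. Of 22 tested genes of antibody secretion, 4 were higher in 595sp and 2 in 589bm (1 with median scaling), with a median of -0.03. The 27.3% called is near the 28.9% of all genes. They were led by the signal peptidase subunit Sec11c (-0.83, adjusted p = 0.0237) and by Fkbp11 in the other direction (0.64, adjusted p = 0.00364). Of the 6 called, Dnajc3, Sec11c, Sdf2l1, Pdia4 and Txndc5 lost the call without at least 1 time pair (adjusted p of 0.0529 to 0.178), and Fkbp11 did not.

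**Figure D2:**
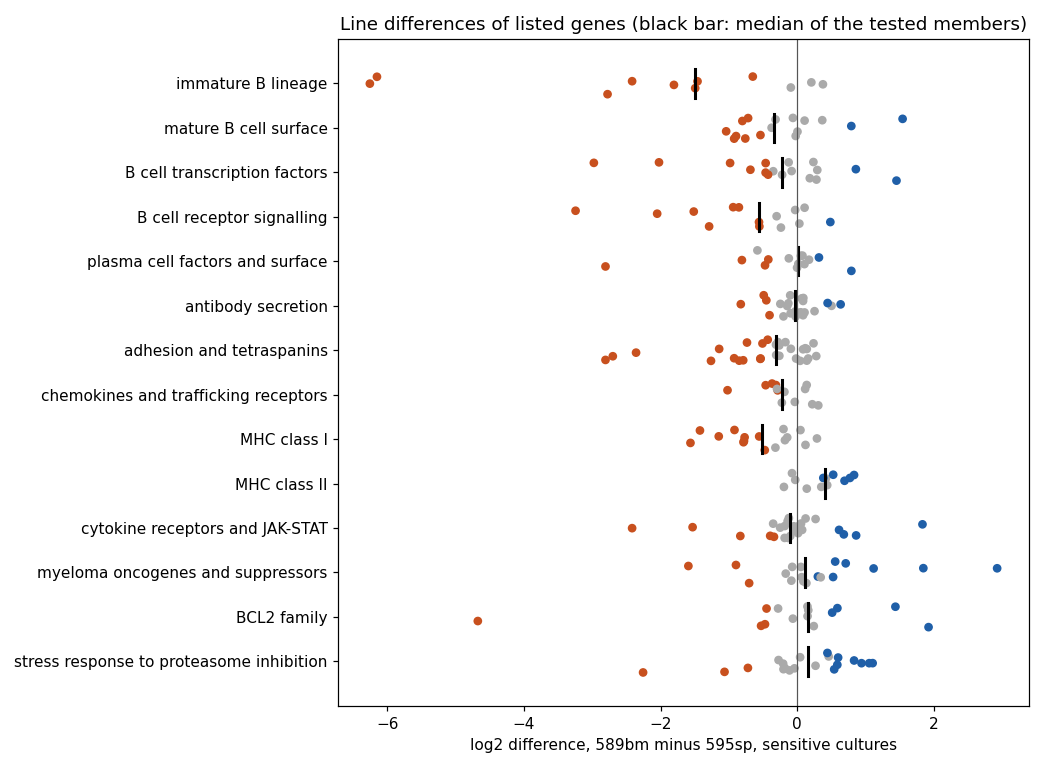
Log2 difference between the lines (589bm minus 595sp, horizontal axis) of each tested member of 14 gene lists (rows). Blue points were called higher in 589bm, orange points higher in 595sp and grey points were not called, and a black bar marks the median of a list, from -1.49 for the immature B lineage to 0.40 for MHC class II. Vpreb1 and Igll1 are the points beyond -6.

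On the cell surface, adhesion genes and tetraspanins were called in 1 direction. Of 29 tested, 13 were higher in 595sp (against 14.4% of all genes) and 0 in 589bm (against 14.6%), with a median of -0.31. Besides Cd9 they were led by Cd69, an activation antigen (-2.70, adjusted p = 2.78e-06), the tetraspanin Cd82 (-2.36, adjusted p = 3.86e-08) and Cd47, the ligand that restrains phagocytes (-1.26, adjusted p = 7.66e-06). Cd69 was at 8.36, 8.37, 10.83, 11.44 and 11.01 in 589bm and at 11.94, 11.93, 13.25, 13.17 and 13.22 in 595sp. It stood higher from 8 h on in both lines, and the lines did not overlap, while a second, dim Cd69 probe gave -0.30. The integrin chain Itga4 did not pass (-0.26, adjusted p = 0.255). Of 13 tested chemokines and trafficking receptors, 5 were higher in 595sp and 0 in 589bm, where 38.5% called stands against 28.9% of all genes. Gpr183, which positions B cells within follicles, led them (-1.02, adjusted p = 7.80e-05). Ccl5 (-0.46), Ccr7 (-0.37) and Ccr2 (-0.31) differed little, and each lost its call without at least 1 time pair (adjusted p of 0.0541 to 0.207). Without the 24 h pair the Ccr7 difference was -0.24. The chemokine receptor Cxcr4 did not pass (-0.19, adjusted p = 0.54). The chemokine Ccl9, on none of the lists, was at 6.61 to 7.01 in 589bm and at 10.25 to 10.88 in 595sp (-3.74, SE 0.16, adjusted p = 3.89e-09).

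The classes of antigen presentation genes went opposite ways. MHC class I genes show peptides from inside the cell. Of 16 tested, 9 were higher in 595sp (against 14.4% of all genes) and 0 in 589bm, with a median of -0.52. The peptide transporter Tap2 was at 10.11, 9.99, 9.60, 9.29 and 9.75 in 589bm and at 11.13, 11.30, 11.22, 11.42 and 11.49 in 595sp (-1.56, adjusted p = 7.62e-06), with no overlap. Nlrc5, the transactivator of these genes, stood at -1.42 (adjusted p = 1.46e-05), the heavy chain H2-K1 at -1.15 (adjusted p = 0.000698) and the immunoproteasome subunit Psmb9 at -0.92 (adjusted p = 0.000121). The 2 other kept probes of H2-K1, both dimmer, gave -0.36 (adjusted p = 0.0364) and -0.30 (adjusted p = 0.112, not called). Class I heavy chains are near-identical, so a probe of H2-K1 can read related genes. Of 12 tested MHC class II genes, 5 were higher in 589bm (against 14.6% of all genes) and 0 in 595sp, with a median of 0.40, and with median scaling 3 were. Cd74, the invariant chain, was at 13.70, 13.78, 13.68, 13.72 and 13.63 in 589bm and at 12.79, 12.82, 13.21, 13.13 and 13.10 in 595sp (0.69, adjusted p = 0.000633), with no overlap. H2-Ea (0.83), H2-Ab1 (0.77) and H2-DMb2 (0.53) were called with overlapping arrays, as was the class II transactivator Ciita, named to complete the list (0.38, adjusted p = 0.048), and H2-DMb2 lost its call without the 0, 2 or 16 h pair (adjusted p of 0.052 to 0.105).

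Of 25 tested cytokine receptors and signalling genes, 4 were higher in 589bm and 5 in 595sp, shares near the 14.6% and 14.4% of all genes. Igf1r, the receptor for insulin-like growth factor 1, was at 8.99, 9.14, 8.21, 8.55 and 8.42 in 589bm and at 6.87, 7.21, 6.41, 6.67 and 6.99 in 595sp (1.83, SE 0.13, adjusted p = 6.03e-07). Its other probes gave 0.73 and 0.08. Socs3, an inhibitor of cytokine signals, stood at 0.86 (adjusted p = 0.00273), Il6ra, a subunit of the interleukin 6 receptor, at 0.68 (adjusted p = 0.0142) and Ifngr2, a subunit of the interferon gamma receptor, at 0.61. Il6ra in 589bm was at 8.42 and 8.52 at 0 and 2 h and at 7.45 to 7.53 later, against 6.81 to 7.62 in 595sp. Its call was lost without the 0 or the 2 h pair (adjusted p = 0.0665 and 0.0614), and that of Ifngr2 without the 0, 2 or 8 h pair (0.0614 to 0.125, with a difference of 0.41 without 8 h). Higher in 595sp, besides Il7r, were Il27ra (-1.53, adjusted p = 1.82e-06) and Stat3 (-0.83, adjusted p = 0.00507), both without overlap. Among Ly6 and GPI-linked surface proteins, 40% of 10 were called, against 28.9% of all genes. The 3 higher in 589bm were Thy1 at 1.10 (adjusted p = 1.52e-05), Prnp at 0.96 and Cd59a at 0.55. The 1 higher in 595sp was Ly6d, known from cells committed to the B lineage, at 6.55 to 7.25 in 589bm and at 9.09 to 10.51 in 595sp (-2.96, SE 0.16, adjusted p = 3.69e-08).

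The lines differed in the D cyclins, which drive entry into the cell cycle and are often raised in myeloma. Of 18 tested oncogenes and suppressors of myeloma, 7 were higher in 589bm and 3 in 595sp, and with median scaling 4 and 3. The shares of all genes were 14.6% and 14.4%, so the count toward 595sp is near the general share. Ccnd1, cyclin D1, was at 10.95, 11.24, 9.43, 9.03 and 8.98 in 589bm and at 7.37, 7.27, 6.75, 6.73 and 6.88 in 595sp (2.93, SE 0.23, adjusted p = 1.37e-06). Ccnd2 and Ccnd3 differed the other way, by -0.90 (adjusted p = 0.000173) and -0.70 (adjusted p = 0.00156), both with overlap. Further probes of Ccnd2 gave -1.14 and, for a dim one, -0.09. Those of Ccnd3 gave -0.44 and -0.24, neither called (adjusted p = 0.141 and 0.163). In the resistant cultures Ccnd2 differed by -0.01 (adjusted p = 0.969) and Ccnd3 by -0.36 (adjusted p = 0.0273). Cdkn1a, the p21 inhibitor of the cell cycle, was at 7.95, 8.38, 9.59, 10.07 and 9.44 in 589bm and at 10.29, 10.13, 11.18, 11.08 and 10.73 in 595sp (-1.59, adjusted p = 1.45e-05), with no overlap. The suppressor Rb1 stood at 0.71 (adjusted p = 0.00821), with overlap.

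Of the products named in the genotype, Myc differed in the sensitive cultures and Bcl2l1, which encodes Bcl-XL, did not pass there. Myc was at 10.64, 10.92, 10.35, 10.14 and 10.04 in 589bm and at 8.83, 8.76, 8.69, 8.15 and 8.44 in 595sp, a difference of 1.85 (SE 0.13, adjusted p = 3.71e-07) or 3.6-fold, with no overlap. Pvt1, the noncoding gene next to Myc, differed by 1.12 (adjusted p = 7.71e-05). Bcl2l1 was at 14.50 to 14.95 in 589bm and at 14.38 to 14.79 in 595sp (0.15, SE 0.13, adjusted p = 0.447). A second bright probe of it gave 0.02 and a dim one 0.03. Whether these probes read the transgene, the mouse's own gene or both is not given in the sources used here.

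The BCL2 family decides between survival and death of the cell. Of 14 tested members, 4 were higher in 589bm (2 with median scaling) and 4 in 595sp, where 57.1% called stands against 28.9% of all genes. Bcl2l2, which encodes the survival protein Bcl-w, was at 6.23, 6.37, 6.21, 6.28 and 6.24 in 589bm and at 10.73, 10.79, 11.05, 10.78 and 11.35 in 595sp. The 589bm arrays lay below the array median and those of 595sp far above it (-4.68, SE 0.14, adjusted p = 2.55e-10). A second probe gave -3.60, and 3 dim probes gave -0.04, -0.30 and -0.39. Bbc3 (PUMA), a BH3-only protein that triggers cell death, was at 10.35, 10.07, 10.60, 10.79 and 10.66 in 589bm and at 7.76, 7.88, 8.74, 9.17 and 9.30 in 595sp (1.92, SE 0.17, adjusted p = 2.57e-06). The lines did not overlap, while its other 2 probes, both dim, gave 0.29 and 0.28. Bmf, of the same class, stood at 1.44 (adjusted p = 0.000239), with 9.40 against 7.37 at 0 h and 7.50 against 6.97 at 24 h. Bcl2l11 (Bim, 0.59) and the survival gene Mcl1 (0.51) were higher in 589bm, and both lost the call without the 0 or the 2 h pair, Bcl2l11 also without the 16 h pair (adjusted p of 0.0533 to 0.087). Bad (-0.53), Bak1 (-0.47) and Bcl2a1b (-0.45) differed in the other direction, and the calls of Bak1 and Bcl2a1b were lost without the 8 h pair (0.0519) and the 16 h pair (0.0586).

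Genes of the stress response to proteasome inhibition differed between the lines while their levels shifted over the hours. Of 20 tested, 8 were higher in 589bm (against 14.6% of all genes) and 3 in 595sp (near the 14.4% of all genes). The median of 0.16 became 0.02 with median scaling. Hspb1, the small heat shock protein Hsp27, was at 6.56, 6.71, 9.53, 9.68 and 11.35 in 589bm and at 9.15, 9.26, 11.57, 12.58 and 12.55 in 595sp (-2.26, SE 0.20, adjusted p = 3.32e-06). It was higher in 595sp at each of the 5 times, although arrays of different times overlapped. Hspa1a, the inducible Hsp70, was at 6.76 and 6.65 at 0 h and at 13 and 10.88 at 24 h (589bm and 595sp). Its mean difference of 0.94 (adjusted p = 0.019) lost its call without the 16 or the 24 h pair (0.0899 and 0.0949). Further Hspa1a probes gave 0.71 (adjusted p = 0.0296) and 0.37, the latter not called (adjusted p = 0.443). Nupr1, a stress-induced chromatin protein (1.11, adjusted p = 4.65e-05), and Sesn2, a target of the integrated stress response (1.05, adjusted p = 0.00179), were higher in 589bm. So was Ddit3 (CHOP) by its brightest probe (0.59, adjusted p = 0.0116), while a second probe gave 0.04 and was not called (adjusted p = 0.886). Gabarapl1, an autophagy protein, stood at -1.06 and Hmox1, heme oxygenase, at -0.72. Chac1 (0.83, adjusted p = 0.0438) was at 7.37 against 7.80 at 0 h and at 11.21 against 9.45 at 24 h, and lost its call without the 8, 16 or 24 h pair (0.0921 to 0.192). Psmb5, the proteasome subunit that bortezomib binds, did not pass (0.25, adjusted p = 0.475).

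Whether the line difference itself changed from the early arrays (0 and 2 h) to the late ones (8, 16 and 24 h) was tested as an interaction, with 3 residual degrees of freedom. By limma, 1 gene was called, 0.00851% of 11749, while 992 genes had an unadjusted p under 0.05. That gene was Sgk1, a kinase induced by stress and steroids, at 7.16, 7.13, 7.20, 8.19 and 8.18 in 589bm and at 8.60, 8.70, 10.96, 12.15 and 12.48 in 595sp. In 589bm it stood higher at 16 and 24 h, and in 595sp from 8 h on and by more (change of the difference -2.50, SE 0.25, adjusted p = 0.0166). The call was lost without the 0, 2, 16 or 24 h pair (adjusted p = 0.358, 0.135, 0.0706 and 0.307), and without the 8 h pair 71 genes were called. The number of arrays limits this test, and a gene that missed the threshold is not shown to be constant.

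Of the other genes with the greatest differences, Reln, a secreted matrix glycoprotein known from the brain, was at 11.42, 11.93, 10.39, 9.71 and 9.61 in 589bm and at 7.31, 7.38, 7.30, 6.97 and 6.86 in 595sp (3.45, SE 0.24, adjusted p = 3.79e-07). Rd3l was at 12.06, 11.77, 10.76, 9.46 and 10.29 in 589bm against 6.73 to 7.27 in 595sp (3.83), and the potassium channel Kcnk1 at 9.15 to 10.49 against 6.17 to 6.41 (3.58). Neither gene overlapped between the lines. Afdn, a scaffold of cell junctions (3.29), the kinase Prkcz, an atypical protein kinase C (3.21), alkaline phosphatase Alpl (3.09), the neuropeptide Npw (3), Grifin (2.90), Enpp4 (2.90) and Ifi27 (2.83) complete the 12 toward 589bm, with Atad1 and Ccnd1. Of these, Npw had the highest adjusted p (5.54e-05), and it was at 10.71 at 0 h and 7.68 at 24 h in 589bm, against 6.10 to 6.74 in 595sp.

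Higher in 595sp were Emp1, a membrane protein, at 6.25 to 6.50 in 589bm and at 10.68, 10.86, 10.94, 11.38 and 11.86 in 595sp (-4.75, SE 0.17, adjusted p = 1.24e-09), and Grb10, an adaptor that restrains insulin and IGF1 receptors, at 6.43 to 6.63 against 10.66 to 11.46 (-4.60, SE 0.15, adjusted p = 6.01e-10). The orphan receptor Gpr171 (-4.30), the endosomal sorting subunit Vps26c (-4.18), Arpp21 (-4.17) and the tyrosine kinase Fes (-3.78) also separated the lines without overlap. For Vps26c, the 2 further probes gave -1.18 and -0.05.

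Papss2 and Atad1, adjacent tested genes on chromosome 19, differed in opposite directions. Papss2, which makes the sulfate donor of the cell, was at 6.36, 6.10, 6.24, 6.22 and 6.83 in 589bm and at 11.59, 11.45, 11.35, 10.94 and 11 in 595sp (-4.92, SE 0.17, adjusted p = 6.70e-10). Atad1, an ATPase that extracts misplaced proteins from the mitochondrial outer membrane, was at 11.07, 10.97, 10.82, 10.52 and 10.35 in 589bm and at 6.60, 6.61, 6.54, 6.66 and 6.72 in 595sp (4.12, SE 0.15, adjusted p = 1.08e-09). It had the greatest difference toward 589bm of all genes tested. Minpp1, the tested gene on the other side of Papss2, averaged 7.29 and 7.74 (adjusted p = 0.141), and Lipo3, next to Atad1, was higher in 595sp (-1.04, adjusted p = 4.34e-05).

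Markers of other blood cells also differed between the lines. Their counts stand beside 14.6% of all genes higher in 589bm and 14.4% higher in 595sp. Of 7 tested T cell genes, 2 were higher in 589bm, Cd2 (2.15) and Cd3g (0.76), and 3 in 595sp, the signalling genes Lat (-2.20) and Zap70 (-1.33) and Cd8b1 (-0.93, with a dim second probe at -0.01). The summed intensity of the 7 was 2709 to 5446 in 589bm and 4143 to 6976 in 595sp. Cd3e averaged 6.54 and 6.57, near the array median, and Cd3d, Cd4, Cd8a, Cd5, Cd7 and Trat1 were below the filter. Of 6 tested NK cell genes, 4 were higher in 595sp and 1 in 589bm, with a summed intensity of 997 to 1386 in 589bm and 1756 to 2325 in 595sp. Fcer1g, the Fc receptor gamma chain of NK and myeloid cells, was at 6.30 to 6.54 in 589bm and at 9.46 to 10.22 in 595sp (-3.30, SE 0.14, adjusted p = 3.64e-09), while Ncr1, Klrk1 and Gzmb were below the filter.

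Of 10 tested myeloid genes, 7 were higher in 595sp and 1, the transcription factor Cebpb, in 589bm (1.23, adjusted p = 1.83e-05). The 80% called stands against 28.9% of all genes. The summed intensity of the 10 was 1636 to 3561 in 589bm and 2514 to 2878 in 595sp. Csf1r (-1.10, adjusted p = 0.000257), Mpeg1 (-0.97) and Cd14 (-0.93) led those higher in 595sp. Cd14 in 595sp was at 7.88 and 8.77 at 16 and 24 h and at 6.53 to 6.71 before, and its call was lost without the 16 or the 24 h pair (adjusted p = 0.0716 and 0.0517, with a difference of -0.59 without 24 h). Lyz2, Adgre1, S100a8, S100a9, Mpo and Cebpa were below the filter. Of 6 tested erythroid and megakaryocyte genes and 6 stromal and endothelial genes, limma called 0, and with median scaling 1 stromal gene. Lepr, a stromal marker, did not overlap, at 6.22 to 6.56 and 6.59 to 6.79 (adjusted p = 0.0532). The part of other cells in the differences between the lines was not tested.

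The last lists cover traits that cell lines can carry. Of 24 tested interferon response genes, 5 were higher in 589bm and 3 in 595sp, with a median of 0.04, and the 33.3% called is near the 28.9% of all genes. Ifi27l2a stood at 2.58 and Gbp2 at 2.06, against Ifitm3 at -1.77, and the calls of Ifitm2, Oasl1 and Mx2 were lost without at least 1 time pair (adjusted p of 0.0517 to 0.12). Of 13 tested imprinted genes, 3 were higher in 589bm and 1, Grb10, in 595sp, which is also near that share (30.8%). Cdkn1c, an inhibitor of the cell cycle, was at 8.07, 8.74, 8.13, 9.16 and 8.83 in 589bm against 6.27 to 6.69 in 595sp (2.13, SE 0.17, adjusted p = 1.47e-06). The calls of Igf2r and Kcnq1ot1 were lost without at least 1 time pair (0.0543 to 0.117). Their other kept probes gave 0.29 (adjusted p = 0.134) and, for a dim one of Kcnq1ot1, -0.09 (adjusted p = 0.589), neither called. Of 9 tested sex-linked genes, 2 (22.2%) were higher in 589bm, Eif2s3x (0.72, adjusted p = 0.00265) and Kdm5d (0.40), whose call was lost without the 0 or the 16 h pair (0.0787 and 0.0535). Xist, the RNA of the inactive X chromosome, averaged 6.55 and 6.60. Actb, often used as a reference gene, was higher in 595sp by its brightest probe (-0.75, adjusted p = 0.00251), and of its 5 kept probes 3 were higher in 595sp and 2 in 589bm.

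Over all 25 lists, 334 of 464 distinct genes were tested and 152 were called (45.5%, against 28.9% of all genes). Without time as a term, 101 were called. The lists were chosen with earlier results of these data known, so this share is a description.

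Called genes were unevenly spread over the chromosomes. On chromosome 4, 251 of 734 tested genes were higher in 589bm and 42 in 595sp. This is 39.9% called, against 28.9% of all genes. Of these calls, 85.7% were toward 589bm, against 50.3% of all calls. The median difference of its tested genes was 0.17, against 0.00 in the resistant cultures. That median ranged from 0.11 with the authors' normalized values to 0.35 with the brighter 30% of probes. Chromosomes 17, 3, 12 and 15 leaned the same way, with medians of 0.13, 0.12, 0.11 and 0.10. Chromosomes 13, 5 and 6 leaned to 595sp, with 120, 205 and 152 genes higher in 595sp against 39, 52 and 44 in 589bm. Of their 402, 767 and 573 tested genes, 39.6%, 33.5% and 34.2% were called. Of these calls, 24.5%, 20.2% and 22.4% were toward 589bm.

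Within chromosomes some differences lay in blocks of neighbouring genes. The median over 21 neighbouring tested genes was taken along 20 chromosomes, in the gene order of GRCm38.p6, and its 5th and 95th percentiles over 11313 windows were -0.23 and 0.26. On chromosome 6, the window from Setmar to Fancd2 had a median of -1.72, with 15 genes higher in 595sp and 0 in 589bm. A second on chromosome 6, from Mug-ps1 to Spsb2, which holds Ptpn6, had -1.62, and another, from Tpi1 to Tnfrsf1a, -1.12. On chromosome 5, the window from Pmpcb to Fastk had -1.12, although Reln within it was higher in 589bm, and that from Cdk6 to Rundc3b had -0.77. A window on chromosome 16 from Runx1 to Igsf5, with Vps26c, had -0.83.

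Blocks toward 589bm lay on chromosome 4, from Morn1 to Pusl1 (1.24, 17 genes higher in 589bm and 0 in 595sp, Prkcz among the window's genes) and from Lzic to Rpl22 (0.94, 18 genes). On chromosome 12 they ran from Tnfaip2 to Cdca4 (1.17, with Rd3l) and from Kcnk13 to Ifi27 (0.75, with Ifi27 and Ifi27l2a). These 10 windows were picked for their size, so no test is given. They hold 210 of the 11749 tested genes, and counts of genes within them are a description. Among these are 5 of the 24 genes with the greatest differences and 20 of the 131 called genes over 2 on the log2 scale. Of the 152 called genes of the lists they hold 2, near the share of all tested genes. The windows do not cover the wider lean of a chromosome. Cd9, Cd69, Ccnd2, Gabarapl1, Cd8b1 and Emp1 lie on chromosome 6 outside these windows. All were higher in 595sp, the direction in which chromosome 6 leaned. How far the genes of the lists follow the lean of their chromosomes was not tested. Vpreb1, Igll1, Bcl2l2, Ccnd1 and Myc are in none of the 10 windows. The arrays measured RNA, and the number of DNA copies was not analysed here.

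**Figure D3:**
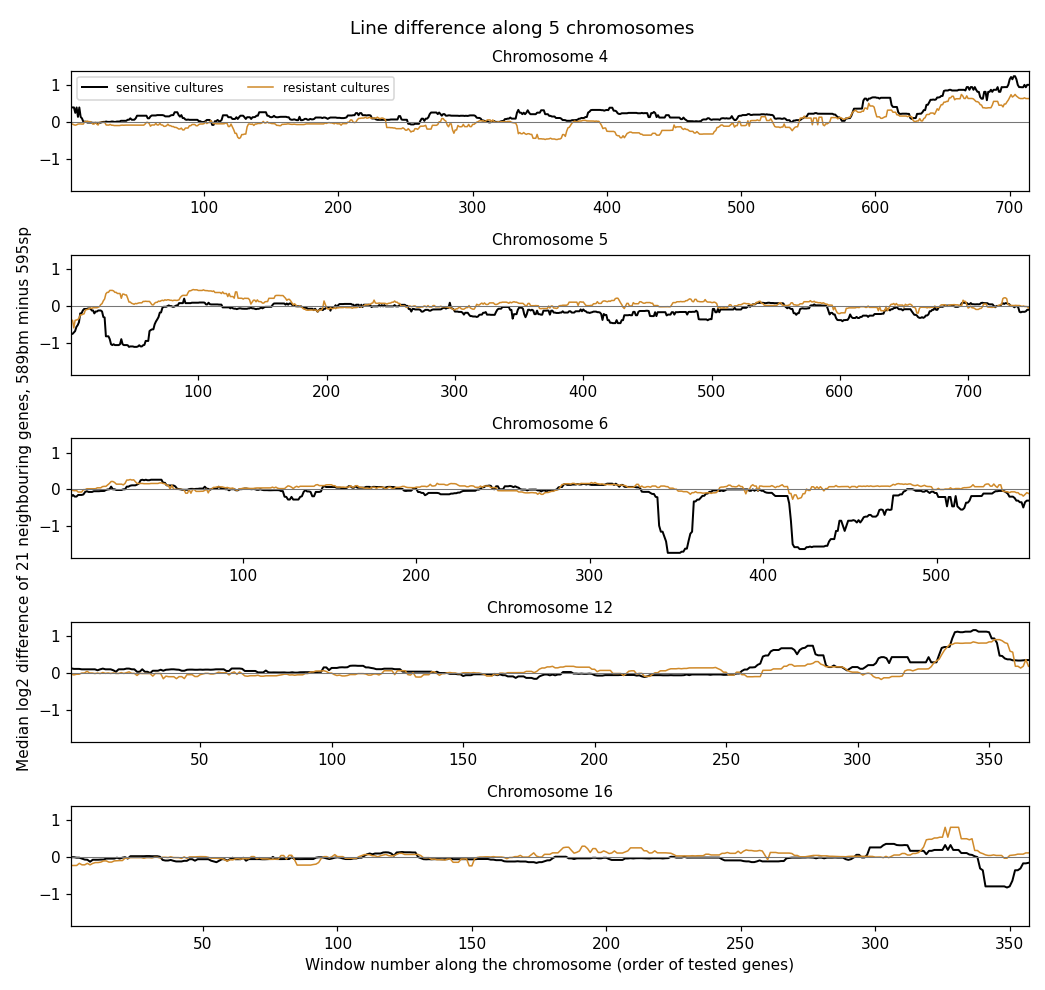
Median log2 difference (589bm minus 595sp, vertical axis) over 21 neighbouring tested genes along 5 chromosomes (horizontal axis, gene order). Black is the sensitive and orange-brown the resistant cultures. The deepest troughs of chromosomes 5 and 6, down to -1.12 and -1.72 in the sensitive cultures, are not followed by the resistant ones, while the peaks of 1.24 on chromosome 4 and 1.17 on chromosome 12 appear in both.

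The same contrast in the resistant cultures shows which differences between the lines were found again in separate cultures. There 3746 of 11923 genes were called (31.4%), 2013 higher in 589bm (16.9%) and 1733 in 595sp (14.5%). With median scaling the split was 443 and 3145, and the median difference of all genes moved from 0.04 to -0.25, so differences in the resistant cultures are to be read relative to such a shift. Of 10842 genes tested in both, 3275 were called in the sensitive cultures, and 1284 of them were called with the same sign in the resistant ones. That is 39.2% of the sensitive calls and 35.3% of the 3642 resistant calls, where 17.7% and 15.9% of these genes were called higher in 589bm and in 595sp. A further 312 were called with the opposite sign and 1679 were not called. Of the 125 sensitive calls over 2 on the log2 scale, 79 (63.2%) were called with the same sign and 10 with the opposite one.

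The surrogate light chain was low in both resistant cultures. Vpreb1 was at 6.94, 7.08, 6.59 and 6.76 in resistant 589bm (0, 8, 16 and 24 h) and at 7.88, 7.38, 7.16 and 7.04 in resistant 595sp. Igll1 was at 7.25, 7.55, 7.39 and 6.58 and at 8.43, 7.76, 7.16 and 7.32. Vpreb1 was still called, at a small difference (-0.52, adjusted p = 0.0143), and Igll1 was not (-0.47, adjusted p = 0.0739). Tested as an interaction, the line difference in the sensitive minus that in the resistant cultures was -5.63 for Vpreb1 (adjusted p = 2.01e-12) and -5.78 for Igll1 (adjusted p = 7.98e-11). Over all genes this interaction was called for 2595 of 11821 (22%), 1200 positive (10.2%) and 1395 negative (11.8%), or 1978 and 529 with median scaling, which moved the median of all genes to 0.19. Lat2 (-0.24 in resistant cultures, interaction -4.69), Papss2 (0.15 and -4.98), Emp1 (-0.48 and -4.27) and Fes (-0.70 and -3.08) also differed more in the sensitive cultures, with adjusted p-values of the interaction of at most 7.26e-09. Lat2 averaged 8.93 and 9.16 in the resistant cultures, between its levels in the sensitive lines. The resistant difference of Papss2 came from another of its probes. Its probe of the sensitive fit averaged 6.43 in resistant 589bm and 6.37 in resistant 595sp.

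Of the 8 genes of the immature B lineage called in the sensitive cultures, 7 were called with the same sign in the resistant ones. Of all sensitive calls, 39.2% were. In the resistant cultures Il7r differed by -1.60, Cd93 by -1.21, Sox4 by -3.16, Vpreb3 by -1.72, Lef1 by -1.13 and Cd24a by -0.82. The interaction was called for Cd93 (-1.56, adjusted p = 0.000258) and missed the threshold for Il7r (-0.81, adjusted p = 0.0517). Of 8 mature B cell surface genes called in the sensitive cultures and tested in the resistant ones, 5 kept their sign with a call. This again stands against 39.2% of all sensitive calls. Another 2 were called with the opposite sign and 1 was not called. Ltb (1.05), Fcgr2b (0.61), Cd52 (-0.41), Cd37 (-0.39) and Cd72 (-1.89) were those that kept their sign. Cd180 turned to 589bm (0.61, adjusted p = 0.00668, interaction -1.50, adjusted p = 0.00233), as did Ly86, which encodes the partner protein of Cd180 (0.47, adjusted p = 0.00506), and Tnfrsf13c was not called (0.15).

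Of 9 called B cell transcription factors, 6 kept their sign with a call, against 39.2% of all sensitive calls. Among them were Mef2c (-1.14, interaction -1.84) and Bcl6 (-1.40, interaction -0.63, adjusted p = 0.0915). Irf8 (0.16), Klf2 (-0.09) and Ets1 (0.17) were not called. Of 8 signalling genes of the B cell receptor, 4 kept their sign with a call, among them Ptpn6 (-1.41, interaction -1.83). With so few genes, this is not far from the 39.2% of all sensitive calls. Another 3 were not called, and Blk was higher in 589bm (2.49, interaction -3.78, adjusted p = 4.02e-10). The germinal centre gene Cd86 turned likewise (0.79, interaction -2.32). Among further lists, same-sign calls came for 7 of 12 adhesion genes, 6 of 9 cytokine genes, 5 of 9 MHC class I and 3 of 5 class II genes. They came for 4 of 6 secretion, 3 of 6 plasma cell, 4 of 10 myeloma and 3 of 7 interferon genes, and for 2 of 4 NK cell genes. Lower shares were those of BCL2 family (2 of 7), stress response (3 of 11), chemokine (1 of 5), T cell (1 of 5) and myeloid genes (0 of 7).

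Differences that missed the threshold of the interaction included Bcl2l2 (-5.14 in resistant cultures, interaction 0.47, SE 0.21, adjusted p = 0.131), Afdn (3.13, interaction 0.16, SE 0.26, adjusted p = 0.743), Prkcz (2.97, interaction 0.24, adjusted p = 0.523) and Grifin (3.31, interaction -0.41, adjusted p = 0.269). Grb10 (-3.70), Gpr171 (-3.20), Vps26c (-2.85) and Arpp21 (-2.61) were smaller in the resistant cultures than in the sensitive ones, each with a called interaction. Of the 12 genes with the greatest differences toward 595sp, 9 were called with the same sign in the resistant cultures, and of those toward 589bm 9 of the 11 tested there. Of all sensitive calls over 2 on the log2 scale, 63.2% were. Atad1 and Reln were the exceptions toward 589bm. Atad1 was not called in the resistant cultures (-0.22, adjusted p = 0.212) and averaged 10.65 and 10.87 there. Reln was called there with the opposite sign (-0.44, adjusted p = 0.00599), at averages of 10.66 and 11.10.

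Ccnd1 (1.03) and Alpl (0.78) kept their direction with a smaller difference (interactions 1.89 and 2.32). Myc averaged 10.50 in resistant 589bm and 10.17 in resistant 595sp (0.33, adjusted p = 0.0451), and its interaction was 1.52 (adjusted p = 6.23e-06). Sensitive 595sp was thus the culture with the lowest Myc level. Bcl2l1 was called in the resistant cultures, at 13.95 in 589bm and 14.68 in 595sp on average (-0.73, adjusted p = 4.50e-05). Its interaction was 0.88 (adjusted p = 0.000906). The interactions of greatest size in the positive direction were those of St6galnac2 and Nyx. St6galnac2, a sialyltransferase, averaged 6.89 in resistant 589bm and 11.91 in resistant 595sp, against a difference of 1.36 in the sensitive cultures (interaction 6.38, adjusted p = 1.94e-12), and a second probe of it gave -0.33 in the sensitive cultures. Nyx, a leucine-rich repeat proteoglycan known from the retina, turned likewise from 2.43 to -2.71 (interaction 5.13).

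**Figure D4:**
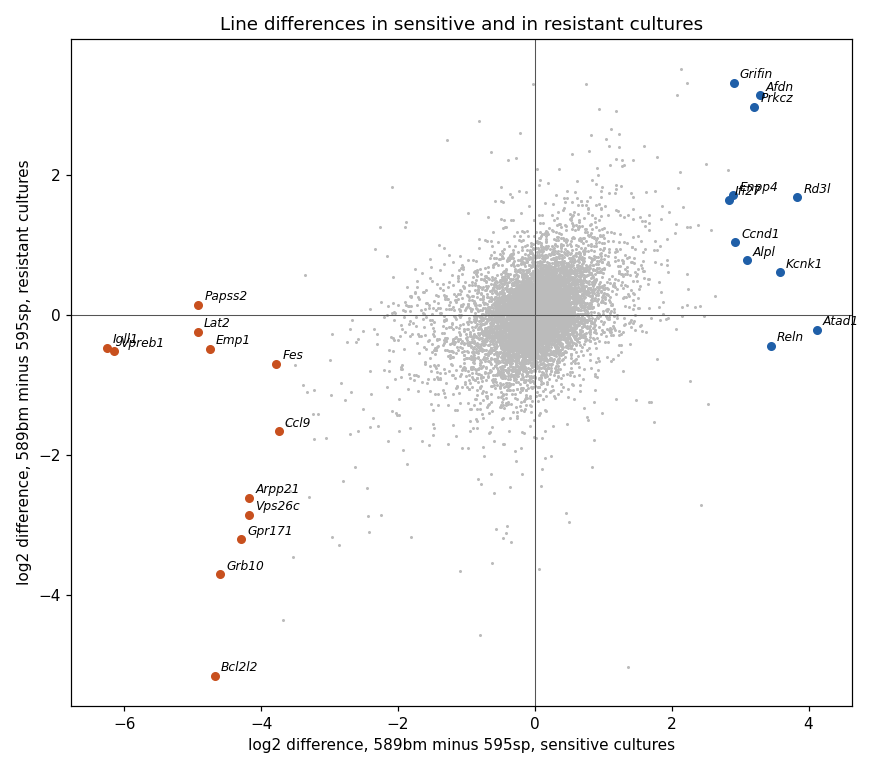
Log2 difference between the lines (589bm minus 595sp) in the sensitive cultures (horizontal axis) and in the resistant cultures (vertical axis), with 1 point for each of 10842 genes tested in both. The named genes are those with the greatest differences in the sensitive cultures. Bcl2l2, Grb10, Grifin, Afdn and Prkcz lie far from 0 on both axes, and Vpreb1, Igll1, Lat2, Papss2 and Atad1 lie near 0 on the vertical axis.

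The blocks of neighbouring genes behaved differently from each other. In the resistant cultures the windows on chromosome 4 had medians of 0.70 for Morn1 to Pusl1 and 0.70 for Lzic to Rpl22, and the window on chromosome 12 from Tnfaip2 to Cdca4 had 0.85, all toward 589bm as before. The windows on chromosome 6 had 0.08 for Setmar to Fancd2, -0.24 for Mug-ps1 to Spsb2 and 0.11 for Tpi1 to Tnfrsf1a, and the window on chromosome 5 from Pmpcb to Fastk had 0.10. The windows from Cdk6 to Rundc3b, Runx1 to Igsf5 and Kcnk13 to Ifi27 had -0.39, -0.03 and 0.25. Relative to the mean of the 4 cultures, the Setmar to Fancd2 window stood at 1.19 in sensitive 595sp and at -0.36, -0.34 and -0.37 in sensitive 589bm, resistant 589bm and resistant 595sp. For Morn1 to Pusl1, both 589bm cultures stood above the mean (0.45 sensitive and 0.52 resistant) and both 595sp cultures below it (-0.68 and -0.20).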

How the data were processed

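The authors deposited 1 table of AVG_Signal values, the linear intensity of 45281 Illumina mouse bead array probes before any normalization between arrays, per the file headers. They also deposited quantile-normalized intensity of the same arrays, which served as an alternative. Per the labels' protocols, RNA purified with QIAshredder and RNeasy kits was biotin-labelled by Illumina TotalPrep. The sources used here name no scanner software and no background step before deposit.

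From the unnormalized table, 19 arrays (all but the resistant 589bm array at 2 h) were background-corrected with normexp (offset 50), taken to log2 and quantile-normalized in R 4.3.3 with limma 3.58.1. The brighter 50% of probes, 22641, were kept. Probe genes came from the platform annotation, updated through Entrez identifiers: 34885 probes had 1 symbol, 18 several and 10378 none. A gene was represented by its kept probe with the highest mean signal. Line differences were fitted with lmFit and eBayes (trend) with time as a term, 10 arrays in the sensitive, 8 in the resistant and 18 in the joint fit, and adjusted by Benjamini-Hochberg over all kept probes. The computation of the fits was checked on simulated data with independent noise, which cannot test the limit of 1 culture for each line.

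The 12 called genes of greatest size without overlap in each direction, up to 4 called members of each list in each direction, or the 1 of greatest size where none was called, up to 5 genes each way for the change over time, 4 each way for sensitive against resistant, and a short list of marker genes were named. Genes named beyond these to complete a list were chosen after their values were seen. The members and lists were chosen with earlier results of these data known. The number of arrays limits the precision. The arrays are paired by time, not by culture. Deviations of the arrays from their line means were correlated between the lines, for 0, 2, 8, 16 and 24 h. At the same time they correlated at 0.582, 0.418, -0.094, 0.21 and 0.533. With another time, the highest correlations were 0.596, 0.29, 0.284, 0.388 and 0.298. At 0, 8 and 16 h an array of another time thus matched better than the paired one, so the pairing is not borne out there.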

Additional observations from a re-analysis of the deposited data

Results flagged for a closer look

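Among 147 genes, the difference between the lines at 1 time stood apart from the other 4 times for 6 genes, where chance flags about 1 in 20. For Gpr171 it was -4.75 at 24 h, against -4.28 to -4.14 at the other times. For Ccr7 it was -0.87 at 24 h, against -0.31 to -0.09, and for Ccr2 -0.50 at 8 h, against -0.27 to -0.25. The prion protein gene Prnp had 1.52 at 24 h, against 0.74 to 0.87. The hemoglobin gene Hba-a1 had 1.95 at 0 h, against -0.31 to 0.32, and Pax5 -0.46 at 0 h, against 0.23 to 0.47, and neither of these was called over the 5 times.

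The line difference in the sensitive cultures differed from that in the resistant cultures, by the limma interaction, for 23 of 27 genes. Of the 27, 24 were taken for the size of their difference in the sensitive cultures, St6galnac2 and Nyx for the size of the interaction itself and Myc as a marker, so a count above the 22% of all genes follows from the choice and is a description. The interaction was negative, a greater excess in sensitive 595sp, for Igll1 (-5.78), Vpreb1 (-5.63), Papss2 (-4.98), Lat2 (-4.69), Emp1 (-4.27), Fes (-3.08), Ccl9 (-2.08), Arpp21 (-1.56), Vps26c (-1.33), Gpr171 (-1.09) and Grb10 (-0.90). It was positive for St6galnac2 (6.38), Nyx (5.13), Atad1 (4.34), Reln (3.89), Kcnk1 (2.97), Npw (2.89), Alpl (2.32), Rd3l (2.16), Ccnd1 (1.89), Myc (1.52), Enpp4 (1.19) and Ifi27 (1.19). Each sensitive and each resistant culture is 1 culture, so a difference between sensitive and resistant cells cannot be told apart from one between single cultures. The line difference of Sgk1 was lower late than early by the same kind of test (-2.505).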

How the results depend on the processing

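The 24 genes with the greatest differences kept their direction and call in all 384 values over 16 alternatives. Of 2097 values of the 132 called named genes, 1914 kept both, 182 kept the direction without the call and 1 turned, Chac1 at -0.21 with the early arrays alone, and 77 genes kept their call in every alternative. Of genes not called, Pax5 (-0.11) and Ms4a1 (0.20) turned with the early arrays, Ms4a1 (0.10) without the 16 h pair and Hba-a1 (-0.17) with the late arrays. Without 1 time pair, 29 named genes lost the call (adjusted p of 0.0515 to 0.207), none with a difference over 0.94, and the count of 3400 was 2698 to 3215. With the late arrays alone it was 2065 and without the time term (no replicate block) 2470. The 152 called genes of the lists became 101 without the block, 100 with the late arrays and 126 to 137 without 1 pair. The resistant count was 2558 to 3233 and that of the interaction with the resistant cultures 1739 to 2415 without 1 pair. The single call for a change over time became 11 with median scaling, 9 with the authors' values, 9 with no background correction, 7 with no filter, 0 for 0 h against 8, 16 and 24 h, and 0 to 71 without 1 pair. The chromosome 4 median was 0.128 with median scaling, 0.112 with the authors' values, 0.113 with no background correction, 0.240 with an offset of 16, 0.350 with the brighter 30% of probes, 0.221 early, 0.2075 late and 0.1785 to 0.2025 without 1 pair, and the cause was not tested. Signal close to background limits the values of genes near the array median.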
